A study of Mus musculus with 3 samples.

Results

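Collagen chain genes were examined as a family in mouse tumour tissue: every gene in the expression tables whose symbol had the form Col, a type number, the letter a and a chain number, which gave 44 of the 32285 genes. Single-cell RNA-seq had been run on 3 groups with 1 library apiece, titled Flox+ICI, Flox+RI and CKO+RI. The hosts were Sfrp2 fl/fl mice (Flox) or Sfrp2ΔCol1a2 mice (CKO), in which deletion of Sfrp2, a secreted Wnt modulator, is tied to activity of the Col1a2 promoter and so to cells that make type I collagen. All hosts carried LLC1-sgLkb1 tumour cells, made from Lewis lung carcinoma by knocking down LKB1. These cells were injected into the tail vein to seed the lung and, 3 weeks later, under the skin as the side to be irradiated. Flox+ICI hosts received an immune checkpoint inhibitor alone, and Flox+RI and CKO+RI hosts received radiation with the inhibitor. The labels give the tissue as tumour without saying which lesion was sampled, and give neither the number of animals per library nor their age. With 1 library per group, no comparison between libraries has a replicate, and the effect of a genotype or treatment cannot be told apart from that of the library.

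Collagen molecules are helical trimers of such chains, and a cell must make the right partners together to secrete a given collagen. Fibrillar chains form the rope-like fibres of connective tissue. Basement membrane chains form the sheet on which endothelium and epithelium rest, and beaded filament, FACIT, multiplexin and transmembrane chains link fibres, sheets and cells. In lung, resident fibroblasts are the main source of types I and III, while capillary endothelium and alveolar epithelium share a basement membrane that changes its type IV chains with the cell type that lays it down.

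Cells were assigned to classes by counting marker genes, none of them a collagen, and 13326 of 29866 kept cells fell into the fibroblast, mural, endothelial, tumour or alveolar class. A cell joined the class with the most markers detected, at least 3 and at least 1 more than any other class. Fibroblast and mural cells also needed a count of Xist, which the hosts express, and tumour cells needed none. The classes are called gated cells below, since a gate is a limit on marker counts and not an annotation. Where 3 values follow each other below, Flox+ICI comes first, then Flox+RI, then the library labelled CKO+RI. Fibroblast-gated cells numbered 114, 21 and 73, endothelial-gated cells 484, 120 and 340, tumour-gated cells 3019, 4003 and 4384, and alveolar-gated cells 446, 113 and 190. Mural-gated cells numbered 8, 4 and 7. Of the 208 fibroblast-gated cells, 11 had just the minimum of 3 markers and 19 led the next class by just 1 marker. Those numbers were 72 and 40 of 944 endothelial-gated, 341 and 525 of 11406 tumour-gated, 116 and 112 of 749 alveolar-gated and 2 and 2 of 19 mural-gated cells.

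In all kept cells, Sfrp2 itself gave 6 counts of unique molecular identifiers (UMIs) in Flox+ICI, 3 with Flox+RI and 46 with the library labelled CKO+RI, of which 3, 1 and 5 lay in fibroblast-gated cells. These counts do not set that library apart as lacking Sfrp2, and a transcript count cannot tell a deleted exon from an intact one. The libraries held 75543561 to 161250286 UMIs. The median kept cell had 3018, 2576.5 and 13406 UMIs, so levels are given as UMIs per 1000000 UMIs of the class (CPM) with exact Poisson intervals that cover counting error only. Pairs of libraries shared 31 to 37 cell barcodes.

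The upstream sequences of 3 chains are shown because the results below turn on these chains. They are Col1a2, the gene named in the deletion, Col3a1, which was read in every class, and Col18a1, a multiplexin called higher in tumour-gated cells. The sequences are from RefSeq on GRCm38.p6, written 5′ to 3′ on the gene's strand. Each is the longest stretch without an annotated exon base in the 250 bases before the RefSeq start site. The Col1a2 stretch runs from 248 to 126 bases before that site and lies inside the annotated gene, which starts at base 4504814. Capitals mark matches on either strand to 3 motifs: the box CCAAT, the TATA element TATAAA and the GC element GGGCGG.
Col1a2, chr6:4505370-4505492, plus strand: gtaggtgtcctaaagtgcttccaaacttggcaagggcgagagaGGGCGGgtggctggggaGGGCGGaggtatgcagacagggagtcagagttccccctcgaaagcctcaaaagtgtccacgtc
Col3a1, chr1:45311288-45311537, plus strand: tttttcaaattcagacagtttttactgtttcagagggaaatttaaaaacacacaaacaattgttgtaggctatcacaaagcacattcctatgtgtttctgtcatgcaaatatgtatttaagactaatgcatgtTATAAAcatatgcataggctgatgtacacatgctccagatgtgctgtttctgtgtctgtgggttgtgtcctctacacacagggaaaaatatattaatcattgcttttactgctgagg
Col18a1, chr10:77166549-77166780, minus strand: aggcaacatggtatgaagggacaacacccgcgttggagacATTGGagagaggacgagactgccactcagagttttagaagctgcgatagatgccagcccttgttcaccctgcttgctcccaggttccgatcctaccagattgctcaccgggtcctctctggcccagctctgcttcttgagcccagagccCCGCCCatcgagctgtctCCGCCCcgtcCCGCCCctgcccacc
The Col1a2 stretch of 123 bases held GGGCGG at 205 and 188 bases before the start site, and 13.3% of all 32851 promoters held that motif in the same window. The Col3a1 stretch of 250 bases held TATAAA at 117 bases before the start, found in 12.4% of all promoters. On the opposite strand, the Col18a1 stretch of 232 bases held CCAAT at 210 bases and GGGCGG at 61, 43 and 33 bases before the start, which 32.4% and 30.1% of promoters held in that window. Over 38 promoters of 35 collagen genes and 250 upstream bases, GGGCGG was found in 22 (57.9%, against 32.7% of all promoters), CCAAT in 13 (34.2% against 33.8%) and TATAAA in 5 (13.2% against 12.4%). A match describes these letters only.

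Summed over all 44 chains, fibroblast-gated cells carried 6993, 23446.5 and 7289 CPM of collagen. Endothelial-gated cells carried 1692, 4664 and 2358 CPM in the same order. Tumour-gated cells carried 979, 912 and 1068 CPM, and alveolar-gated cells 871, 819 and 964 CPM. In each library the order was thus fibroblast above endothelial above tumour and alveolar, as the plot of summed levels shows. T and NK cells, macrophages and neutrophils, which are not collagen producers and serve here as the background level, ranged from 118 to 243 CPM. Tumour-gated cells, the most numerous class, held 88.1%, 88.1% and 94.4% of all collagen UMIs of the gated cells.

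**Figure D1:**
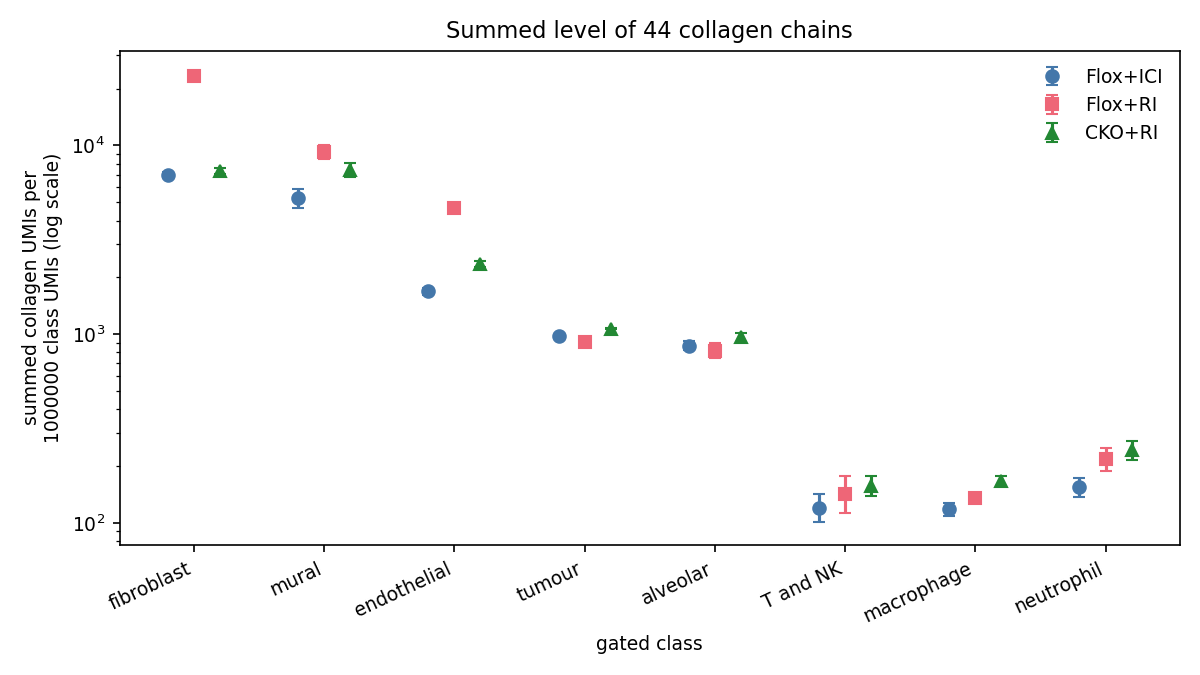
Summed collagen level (UMIs of all 44 chains per 1000000 class UMIs, log axis) in 8 gated classes, with 1 point per library and bars for the exact Poisson 95% interval; mural cells are shown with or without an Xist UMI. Fibroblast-gated cells of Flox+RI sit at 23446.5, above 6993 and 7289 in the other libraries, and leukocytes sit between 118 and 243.

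The classes differed in which structural group supplied these UMIs, a share of transcripts not divided by gene length. Fibrillar chains made up 63.3%, 82.2% and 66.3% of the collagen UMIs of fibroblast-gated cells. In endothelial-gated cells basement membrane chains made up 88.6%, 92.7% and 85.4%. Tumour-gated cells divided theirs among fibrillar chains (45.9%, 42.2% and 53.6%), multiplexins (16.7%, 19.5% and 18.3%), basement membrane chains (14.97%, 16.6% and 16.5%) and beaded filament chains (13.95%, 13.1% and 4.83%). Alveolar-gated cells had 40.1%, 33.9% and 43.5% basement membrane chains and were the class with the largest transmembrane share (16.5%, 5.57% and 12.5%). Of the 35 chains with at least 20 UMIs over the gated cells, 16 had their highest pooled level in fibroblast-gated, 11 in mural-gated, 4 in endothelial-gated, 3 in alveolar-gated and 1 in tumour-gated cells.

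**Figure D2:**
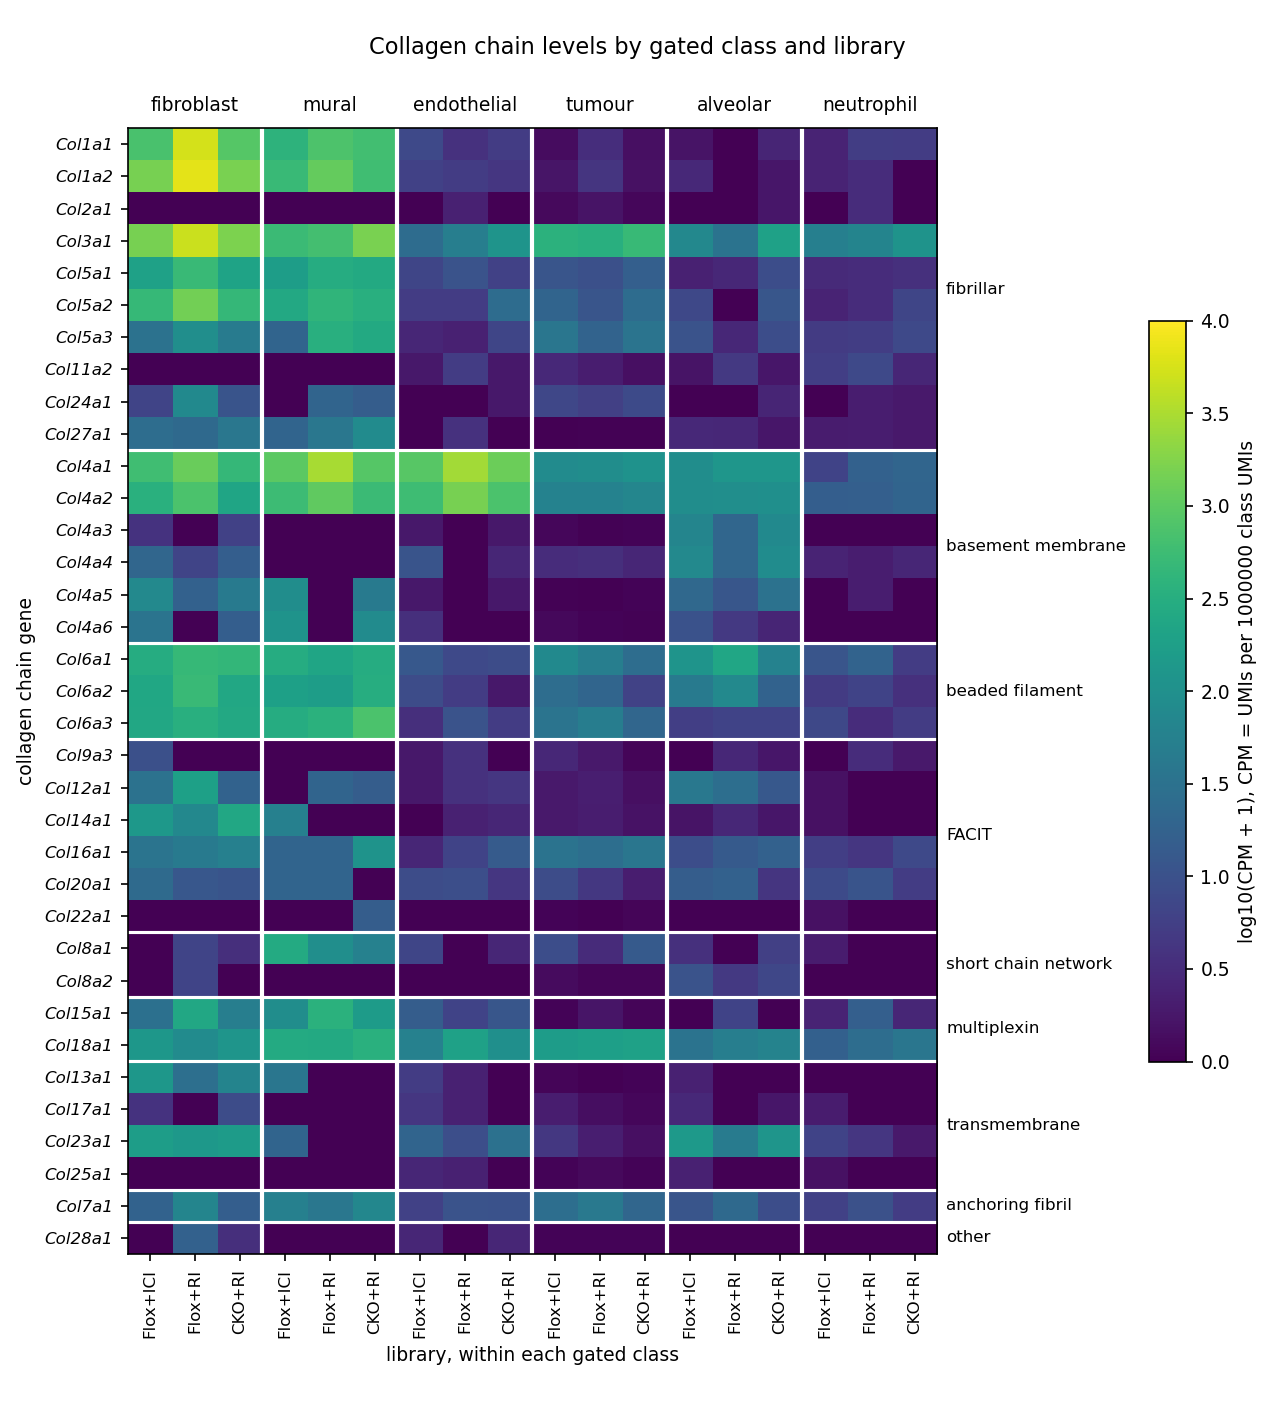
Level of each chain with at least 20 UMIs (rows, by structural group) in 6 gated classes and 3 libraries (columns), as log10(CPM + 1); neutrophils stand for the background level, and mural cells are shown with or without an Xist UMI. The fibrillar chains Col1a1, Col1a2 and Col3a1 are brightest in fibroblast-gated cells, and Col4a1 and Col4a2 in endothelial-gated and mural cells. Col4a3 and Col4a4 are brightest in alveolar-gated cells, and Col3a1 and Col18a1 stand out in tumour-gated cells.

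Which chains were higher in a class was tested on the counts summed per class and library. The 12 sums entered an edgeR quasi-likelihood fit over 11696 genes with library as a block, each class was set against the mean of the other 3, and genes with a Benjamini-Hochberg adjusted p under 0.05 were called. No mural sum reached the minimum of 20 cells. The filter on low counts passed 25 of the 44 chains, and a chain seen in only 1 class passes it only through that class, so the counts that follow describe those 25 and not the family.

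In fibroblast-gated cells 20 of the 25 chains were called higher and 0 lower than in the other classes, where 16.5% of all genes were higher and 13.4% lower. The median log2 difference was 4.20 for the chains and -0.14 for all genes. The chains of type I collagen, the main fibre of most connective tissue, stood furthest apart: Col1a2 had 1497, 6754 and 1579 CPM, against at most 4.98 in the other 3 classes. Col1a1 had 703, 5579 and 868 CPM, against at most 6.64 in the other 3 classes. Their log2 differences in the fit were 10.32 (SE 0.27, edgeR adjusted p = 3.23e-12) for Col1a2 and 9.85 (SE 0.34, adjusted p = 3.98e-11) for Col1a1. The values of the fibroblast-gated cells lay far above every other tested class in every library. Fibroblast-gated cells held 85.8%, 86.2% and 77.9% of the Col1a1 UMIs of all gated cells.

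Among the tested classes this one also led for the other fibril-building chains described here. Col3a1, which co-assembles with type I in soft tissue, had 1486, 4795 and 1623 CPM in fibroblast-gated cells (log2 difference 4.20, SE 0.38, edgeR adjusted p = 1.05e-06). Col5a2, a chain of the type V collagen that starts fibril assembly, had 484, 1385 and 467 CPM (log2 5.99). Its partner Col5a1 had 194, 508 and 206 CPM (log2 5.27). Type VI chains form the beaded microfilaments around cells, and all 3 that were tested were called higher: Col6a1 with 299, 469 and 447 CPM, Col6a2 with 239, 508 and 254, and Col6a3 with 248, 337 and 256. Among FACIT collagens, which decorate fibre surfaces, Col14a1 had 137, 71.7 and 246 CPM (log2 7.28, SE 0.41, adjusted p = 5.98e-09) and Col12a1 had 31.3, 188 and 17.4 CPM (log2 3.83). The transmembrane chain Col13a1 had 128, 27.6 and 62.1 CPM (log2 7.21), and Col23a1, of the same group, had 168, 132 and 154 CPM (log2 3.27). Basement membrane chains Col4a1 and Col4a2 were called higher by 1.30 and 1.04 on the log2 scale, the smallest called differences of the 20. Endothelial-gated cells had more of both, at 1504 and 847 CPM pooled over libraries, against 651 and 368 in fibroblast-gated cells. Fold differences of chains that were near 0 elsewhere depend on the small count that the fit adds, so the CPM are the safer reading.

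The 5 tested chains with no call in fibroblast-gated cells were Col4a3, Col4a4, Col7a1, Col18a1 and Col20a1. Col20a1, a FACIT chain, had its highest pooled level in this class nevertheless, at 22.8, 11.04 and 9.94 CPM. Leukocytes had 2.09 to 12.8 CPM of Col20a1, so only the Flox+ICI value was above the background level. A further 4 chains that were highest here were too sparse to be tested. Col24a1, a minor fibrillar chain, had 5.69, 77.3 and 9.94 CPM, and Col28a1 had 0, 16.6 and 2.49. Col9a3, a cartilage FACIT chain, had 8.54 CPM in Flox+ICI and no UMI in the other libraries, and leukocytes reached 4.59 CPM. Col17a1, the hemidesmosome collagen of epithelia, had 2.85, 0 and 7.46 CPM, and leukocytes reached 7.02. Taking 3 counts of the class total as the limit, a count of 0 in this class allows up to 8.54, 16.6 and 7.46 CPM, so the absence of these chains was not shown.

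Many genes that fold, process, cross-link, bind or break down collagen were also read at high levels in this class. Of 45 such genes, receptors included, 38 passed the filter on low counts and were tested. In fibroblast-gated cells 20 were called higher and 0 lower, where 16.5% of all genes were higher and 13.4% lower. As with the chains, a gene can pass the filter through the class where it is high, so these counts describe the 38 only. Adamts2, which removes the amino-terminal propeptide, had 344, 486 and 313 CPM (log2 9.20, edgeR adjusted p = 1.26e-12). The cross-linking oxidases Loxl1 and Lox were higher by 8.48 and 7.70 on the log2 scale, and the gelatinase Mmp2 by 8.91. Serpinh1, the chaperone of the procollagen helix, had 165, 364 and 194 CPM and was higher by 1.63. In endothelial-gated cells 5 were higher and 15 lower, against 18.6% and 13.3% of all genes. In tumour-gated cells 8 were higher and 12 lower, against 31.0% and 27.8%, and in alveolar-gated cells 4 and 20, against 18.6% and 9.86%. The endothelial calls included Itga1 and Itga2, the collagen-binding integrin chains, and the alveolar calls included Bmp1, the carboxy-propeptide protease, and the receptor Ddr1.

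Between libraries, fibroblast-gated cells showed the widest spread of collagen levels of the tested classes. Ratios were formed for CKO+RI over Flox+RI and for Flox+RI over Flox+ICI, which share the Flox+RI library, so a value peculiar to that library enters both. A chain was taken as past the fold if its level differed at least 2-fold with an exact 95% interval that left out 1, among genes whose 2 UMI counts summed to at least 20. In Flox+RI the summed collagen level was 3.35 times that of Flox+ICI (3.19 to 3.53). For CKO+RI over Flox+RI the ratio was 0.311 (0.296 to 0.326). No p-value accompanies these ratios.

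Of 19 chains compared, 11 were past the fold upwards in Flox+RI over Flox+ICI and 2 downwards, where 5.2% of all genes were past it upwards and 11.8% downwards. In CKO+RI over Flox+RI, 11 were past it downwards and 1 upwards, where 5.47% of all genes were past it downwards and 8.17% upwards. Since both ratios use Flox+RI, the 11 chains that were high there appear in each: Col1a1, Col1a2, Col3a1, Col5a1, Col5a2, Col5a3, Col4a1, Col4a2, Col6a2, Col12a1 and Col15a1. Col1a1 was 7.94 times the Flox+ICI level in Flox+RI (6.90 to 9.16), and the library labelled CKO+RI had 0.156 times the Flox+RI level (0.137 to 0.176). For Col12a1 the ratios were 5.99 and 0.0928, and for the multiplexin Col15a1, at 28.5, 248 and 49.7 CPM, they were 8.73 and 0.200. Col5a3 had 31.3, 93.8 and 44.7 CPM. Flox+ICI and the library labelled CKO+RI lay close together for most of these chains, with Flox+RI above both.

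Some chains had the opposite order. Col13a1 had 0.215 times the Flox+ICI level in Flox+RI (0.0667 to 0.541), and Col4a5, an X-linked basement membrane chain with 74.0, 16.6 and 42.3 CPM, had 0.224 times it. Col14a1 was the 1 chain past the fold upwards in CKO+RI over Flox+RI, at 3.43 times (1.92 to 6.67). Col6a1, Col6a3, Col16a1, Col18a1 and Col23a1 stayed inside the fold in both ratios. Col18a1 had 131, 82.8 and 122 CPM, with a CKO+RI over Flox+RI ratio of 1.47 (0.812 to 2.83). Its interval spans both directions.

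Marker levels in the fibroblast-gated cells also differed between libraries. Of the 12 markers that defined the gate, 9 were lower in Flox+RI than in both other libraries and 2 were higher. Inmt, a marker of resident lung fibroblasts, had 1560, 27.6 and 1740 CPM, and Clec3b had 797, 38.6 and 783. The elastic-fibre gene Mfap5 had 453, 1655 and 579 CPM and Mfap4 had 763, 1368 and 1074, while the general fibroblast marker Pdgfra had 384, 375 and 385. The mural list summed to 313, 695 and 298 CPM, with 9, 10 and 10 of its 12 genes detected. Ndufa4l2 of that list had 14.2, 298 and 34.8 CPM, and the pericyte genes Rgs5 and Higd1b were at 0 in Flox+RI. The median fibroblast-gated cell of Flox+RI had 7589 UMIs, against 2333.5 in Flox+ICI and 3966 in the library labelled CKO+RI, and carried 2 mural, 1 endothelial and 2 tumour markers. The part of cell mixture, depth and shared RNA in the collagen ratios was not tested, beyond the value after thinning each cell to 1000 UMIs, where the summed ratios were 3.87 and 0.271.

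**Figure D3:**
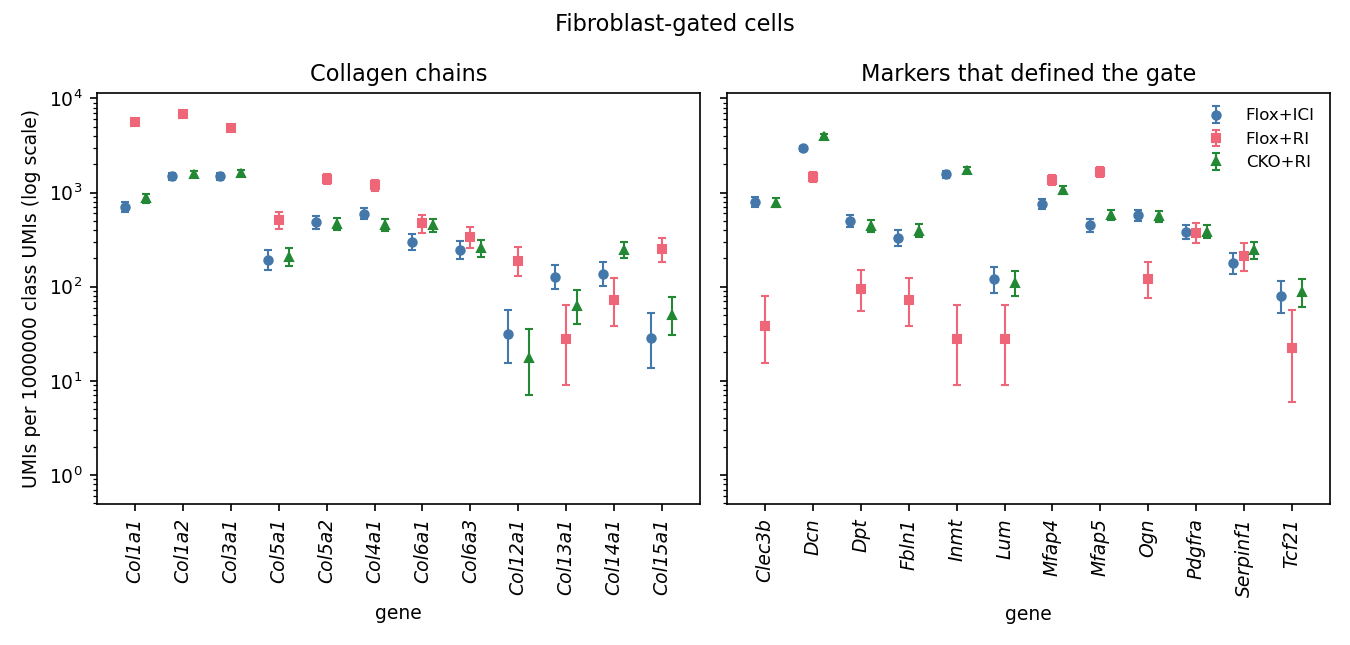
Levels (UMIs per 1000000 class UMIs, log axis) of 12 collagen chains (left) and of the 12 markers that defined the gate (right) in fibroblast-gated cells, with 1 point per library and exact Poisson 95% intervals. Col1a1, Col1a2 and Col3a1 are highest in Flox+RI, and Inmt (27.6) and Clec3b (38.6) are lowest there.

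The high level in Flox+RI was spread over its 21 cells. The cell with the most UMIs held 15.8% of the Col1a1, 14.95% of the Col1a2 and 16.5% of the Col3a1 UMIs, and without it Col1a1 stood at 5187 CPM. Col1a1 was detected in 20 of 21 cells (95.2%, exact interval 76.2 to 99.9%), in 63 of 114 in Flox+ICI (55.3%) and in 51 of 73 in the library labelled CKO+RI (69.9%). After thinning to 1000 UMIs per cell, which left 21, 109 and 72 cells, those shares were 85.7%, 39.4% and 48.6%. In macrophages, which should lack the gene, 0.0967% to 1.36% of cells had a Col1a1 UMI, with median depths of 4546 to 7312.5 UMIs. Cells that passed the fibroblast markers but had no Xist UMI, numbering 96, 12 and 69, also had their highest summed collagen level in Flox+RI, at 4458, 20380 and 3882 CPM.

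Pathway genes in fibroblast-gated cells were compared in the same way. In Flox+RI over Flox+ICI, 11 of 30 were past the fold upwards and 2 downwards, against 5.2% and 11.8% of all genes. These 11 included the hydroxylases Plod2 (28.5, 138 and 74.6 CPM) and P3h1, the P3h family gene P3h4, and the protease Bmp1 (65.5, 270 and 97.0 CPM). In CKO+RI over Flox+RI, 7 of 31 were past it downwards and 2 upwards, against 5.47% and 8.17% of all genes. Pcolce2, an enhancer of procollagen cleavage, had 566, 38.6 and 639 CPM, a ratio of 16.5 in CKO+RI over Flox+RI. The receptor Ddr2 followed the same order with 302, 105 and 308 CPM.

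**Figure D4:**
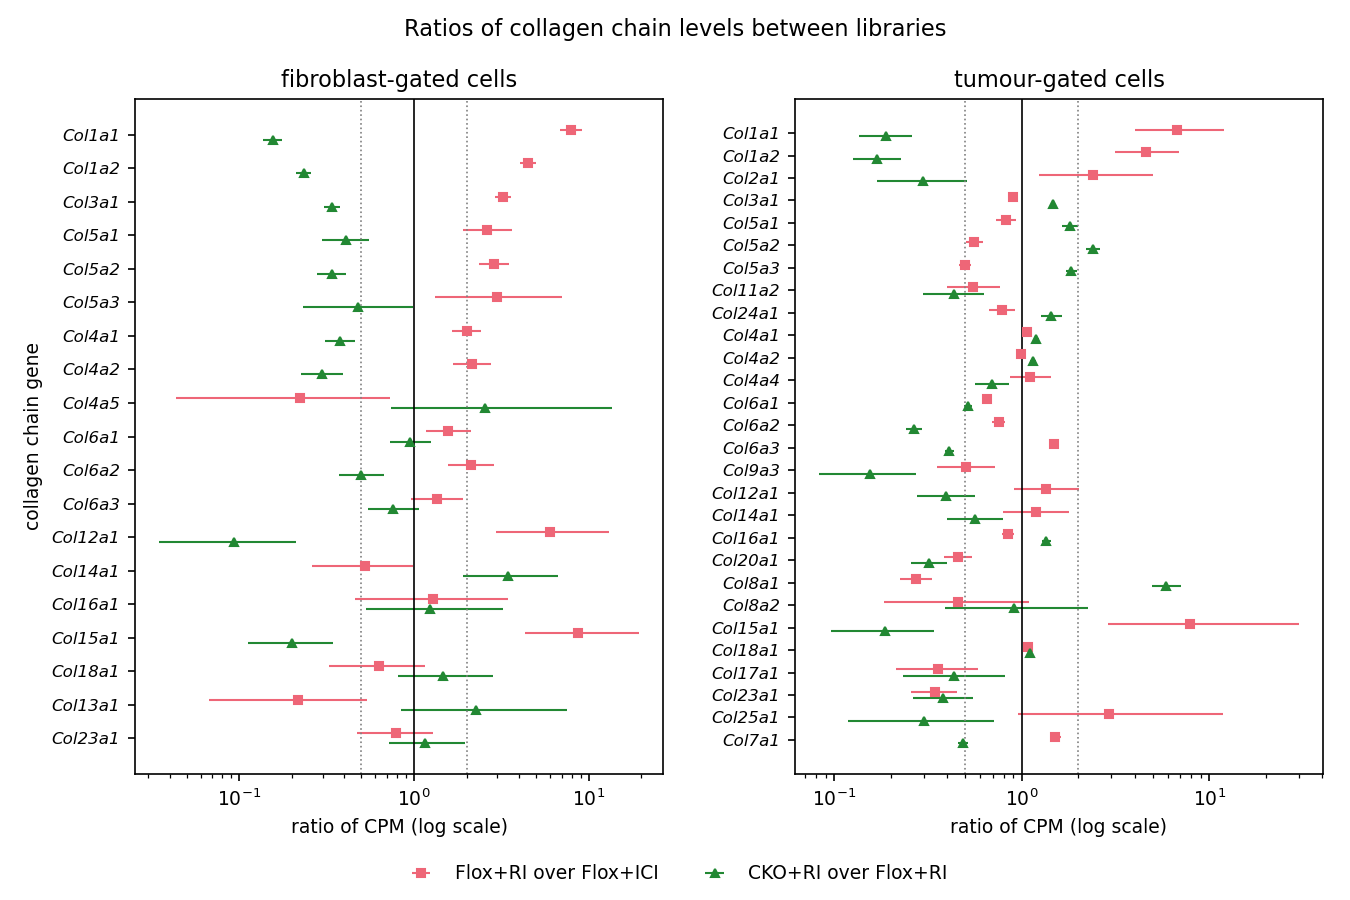
Ratios of CPM (log axis) for each chain with at least 20 UMIs, in fibroblast-gated (left) and tumour-gated cells (right), with exact 95% intervals; dotted lines mark 2-fold, and the 2 comparisons share the Flox+RI library. In fibroblast-gated cells Col1a1 lies at 7.94 for Flox+RI over Flox+ICI and at 0.156 for CKO+RI over Flox+RI.

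Endothelial-gated cells were marked by the basement membrane pair Col4a1 and Col4a2, whose chains assemble with each other in nearly all basement membranes. Their genes lie head to head on chromosome 8, with start sites 21 bases apart on opposite strands (Col4a1 chr8:11198423-11312826, Col4a2 chr8:11312805-11449287, GRCm38). Col4a1 had 924, 2833 and 1270 CPM, and Col4a2 had 562, 1489 and 739. Both were called higher than in the other classes, Col4a1 by 2.82 on the log2 scale (SE 0.21, edgeR adjusted p = 1.19e-07) and Col4a2 by 2.57 (SE 0.23, adjusted p = 6.19e-07). Col15a1, which sits at the outer face of vascular basement membranes, had 14.1, 5.40 and 10.7 CPM and was called higher by 2.12 (edgeR adjusted p = 0.0266). Leukocytes had 0 to 15.3 CPM of Col15a1 over all libraries, and no endothelial value was above that range. Within Flox+ICI the endothelial value was the higher one. Leukocytes there had at most 17.3 CPM of Col15a1 and Col18a1 together, at least 9.86 of it Col18a1. Pooled over libraries, fibroblast-gated cells had 80.2 CPM against 10.8 in endothelial-gated cells. The Col15a1 call was lost without Flox+ICI (adjusted p = 0.371) and without CKO+RI (0.245). In all, 3 chains were called higher and 13 lower, against 18.6% and 13.3% of all genes, with a median log2 difference of -1.98 for the chains and -0.03 for all genes. Col6a1 and Col6a2 had the lowest values among the called chains, at -4.06 and -3.97.

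The same pair was high in Flox+RI. In endothelial-gated cells of Flox+RI the summed level was 2.76 times that of Flox+ICI (2.61 to 2.91), and the library labelled CKO+RI had 0.506 times the Flox+RI level (0.481 to 0.531). Of 6 chains compared in Flox+RI over Flox+ICI, 4 were past the fold upwards (Col3a1, Col4a1, Col4a2 and Col18a1) and 0 downwards, where 5.0% of all genes were upwards and 13.2% downwards. Col4a1 was 3.07 times higher (2.85 to 3.30) and Col18a1, the precursor of endostatin, with 56.4, 193 and 98.3 CPM, was 3.42 times higher (2.55 to 4.64). Of 7 chains in CKO+RI over Flox+RI, 3 were upwards (Col3a1, Col5a2 and Col23a1) and 2 downwards (Col4a1 at 0.448 and Col4a2 at 0.497), where 10.8% of all genes were upwards and 3.77% downwards. The fibroblast marker list in endothelial-gated cells summed to 144, 56.7 and 236 CPM, the same order of Flox+RI and CKO+RI as Col3a1 and Col5a2, and its part in those ratios was not tested. Endothelial-gated Col3a1, at 24.9, 50.0 and 116 CPM, was near the background level, since neutrophils of the same libraries had 52.3, 63.3 and 113. In Flox+RI 1 cell held 51.4% of those Col3a1 UMIs, and 26.2 CPM remained without it. The Flox+RI over Flox+ICI ratio of Col3a1, 2.01, was below 1 without doublet removal (0.860), after thinning (0.517) and with cells weighted equally (0.779). The Col23a1 ratio of CKO+RI over Flox+RI, 3.67 on 18.3, 8.11 and 29.7 CPM, was 0.888 after thinning. Col4a1 was detected in 269 of 484, 109 of 120 and 200 of 340 cells, and median depth was 1429.5, 4215 and 1624 UMIs, highest where the level was highest. After thinning to 1000 UMIs the summed ratios were 3.19 and 0.435.

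Col11a2 and Col25a1, a fibrillar and a transmembrane chain, also had their highest pooled level in endothelial-gated cells, but on few counts. Col11a2 had 0.830, 4.05 and 0.826 CPM, and leukocytes had 1.67 to 6.55 CPM, so no value was above the background level. Col25a1 had 1.66 and 1.35 CPM in the Flox libraries and no UMI in the library labelled CKO+RI, which allows up to 2.48 CPM there.

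Tumour-gated cells, which by the gate had no Xist UMI, carried Col3a1 with almost none of its usual partners Col1a1 and Col1a2. Col3a1 had 375, 336 and 490 CPM, while Col1a1 had 0.349, 2.35 and 0.442 and Col1a2 had 0.676, 3.11 and 0.527. Leukocytes had 26.6 to 113 CPM of Col3a1 and 0.186 to 4.37 of Col1a1, so Col3a1 stood above the background level and Col1a1 did not. Tumour-gated cells held 96.1%, 96.0% and 98.04% of the Col3a1 UMIs of all gated cells. Col3a1 was detected in 86.0%, 86.3% and 95.1% of them, or in 28.3%, 29.8% and 35.98% after thinning to 1000 UMIs. The difference of Col3a1 from the mean of the other classes, fibroblasts included, was 0.82 (SE 0.38, edgeR adjusted p = 0.0757) and was not called. Col3a1 (chr1:45311538-45349706) and Col5a2 (chr1:45374321-45503282) are neighbours on GRCm38, 24614 bases apart.

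The chains called higher in tumour-gated cells were Col18a1, Col5a3, Col16a1, Col7a1 and Col6a3. Each call is against the mean of the other classes, so a single class can still stand higher. Pooled over libraries, fibroblast-gated cells had more Col6a3 (268 against 31.3 CPM), Col5a3 (49.2 against 29.2) and Col16a1 (44.9 against 32.7). For Col5a3 the order was the reverse in Flox+ICI, where tumour-gated cells had more. Pooled in the same way, tumour-gated cells had more Col18a1 (184 against 118 CPM) and Col7a1 (27.2 against 25.7) than fibroblast-gated cells. In Flox+RI alone, fibroblast-gated cells had more Col7a1 (66.2 against 40.5) and endothelial-gated cells more Col18a1 than tumour-gated cells. Mural-gated cells, too few for the fit, had pooled levels above tumour-gated cells for all 5 chains. Col18a1 stood at 358 CPM in them and Col7a1 at 69.7. In tumour-gated cells Col18a1 had 164, 177 and 195 CPM (log2 difference 1.17, SE 0.24, edgeR adjusted p = 7.69e-04). These cells held 97.7%, 98.5% and 98.8% of the Col18a1 UMIs of all gated cells. Col5a3, a type V chain, had 35.9, 17.9 and 33.0 CPM (log2 1.54). Col16a1, a FACIT chain, had 31.9, 26.9 and 36.3 CPM (log2 1.20), and the anchoring fibril gene Col7a1 had 26.9, 40.5 and 19.7 CPM (log2 1.11). Col6a3 had 33.4, 49.3 and 20.3 CPM and was higher by 0.83, but its call was lost without Flox+ICI (adjusted p = 0.0702) and without doublet removal (0.377). In total 5 chains were called higher and 16 lower, against 31.0% and 27.8% of all genes, with medians of -2.27 for the chains and 0.04 for all genes. Col4a1 (85.1, 90.4 and 108 CPM) and Col4a2 (58.8, 58.3 and 66.8 CPM) were among the lower ones, although these many cells held 72.4%, 71.5% and 86.9% of the Col4a1 UMIs.

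Across libraries the summed level of tumour-gated cells moved little, with ratios of 0.931 (0.920 to 0.943) for Flox+RI over Flox+ICI and 1.17 (1.16 to 1.18) for CKO+RI over Flox+RI. Individual chains moved more. In CKO+RI over Flox+RI, 2 of 28 chains were past the fold upwards and 14 downwards, where 4.25% of all genes were upwards and 9.33% downwards. Type VI chains were among the lower: Col6a2 had 25.8, 19.5 and 5.21 CPM, a ratio of 0.267 (0.243 to 0.295), and Col6a3 a ratio of 0.411 (0.390 to 0.434). Col6a1, with 77.4, 50.7 and 26.2 CPM, had a ratio of 0.516 (0.491 to 0.542), just inside the fold. Col7a1 had a ratio of 0.486. The remaining 11 chains past the fold downwards (Col1a1, Col1a2, Col2a1, Col9a3, Col11a2, Col12a1, Col15a1, Col17a1, Col20a1, Col23a1 and Col25a1) had at most 3.47 CPM in either library. Col5a2, with 18.8, 10.5 and 25.2 CPM, and Col8a1, a short chain collagen with 7.79, 2.14 and 12.6 CPM, were past it upwards, at 2.40 (2.21 to 2.61) and 5.90 (4.97 to 7.06).

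In Flox+RI over Flox+ICI, 4 of 28 chains were past the fold upwards and 5 downwards, where 3.38% of all genes were upwards and 7.91% downwards. The 4 were Col1a1, Col1a2, Col2a1 and Col15a1, all at or under 3.11 CPM. The 5 were Col5a3 (ratio 0.499), Col8a1 (0.274, 0.224 to 0.334), Col17a1, Col20a1 and Col23a1. Col2a1, the cartilage fibrillar chain and the 1 chain with its highest pooled level in this class, had 0.262, 0.628 and 0.187 CPM. Leukocytes reached 3.51 CPM of Col2a1, so the tumour-gated value was not above the background level, and its ratio of 2.40 was 0.774 after thinning.

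Tumour-gated cells of the library labelled CKO+RI also carried more RNA of 2 fibroblast markers. The collagen levels were therefore given with the cells divided by how many of the 12 fibroblast markers were detected. Dcn had 6.08, 0.986 and 183 CPM and Lum had 4.10, 0.224 and 183 over the class, while Serpinf1 had 227, 273 and 261. The division was chosen after these values were seen, and each cell was thinned to 5000 UMIs first. Cells with 3 or more fibroblast markers numbered 32 (1.14%), 69 (1.95%) and 701 (16.9%). In them Dcn had 144, 8.70 and 679 CPM and Lum had 125, 11.6 and 659, so the marked cells were not alike across libraries. In them Col3a1 had 812.5, 617 and 968 CPM, against 382, 361 and 465 in the remaining tumour-gated cells. Col5a2 had 62.5, 26.1 and 71.6 CPM against 17.1, 11.4 and 19.3, and Col6a3 had 119, 98.6 and 53.1 against 28.6, 49.3 and 13.1. Col1a1 had 0, 14.5 and 0.571 CPM against 0.360, 2.31 and 0.523, and Col1a2 had 0, 40.6 and 1.71 against 0.720, 2.71 and 0.523. The higher values in the marked cells of Flox+RI rest on 5 Col1a1 and 14 Col1a2 UMIs. Each of these chains was detected in only 2.90% of those 69 cells. The tumour gene Hmga2 had 1119, 1496 and 1428 CPM against 1336, 1347 and 1413. All chains summed to 2012.5, 1696 and 1814 CPM against 976, 947 and 1033. Col3a1 and Col5a2 were thus higher in the library labelled CKO+RI than in Flox+RI on both sides of the division, and Col6a3 was lower on both.

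**Figure D5:**
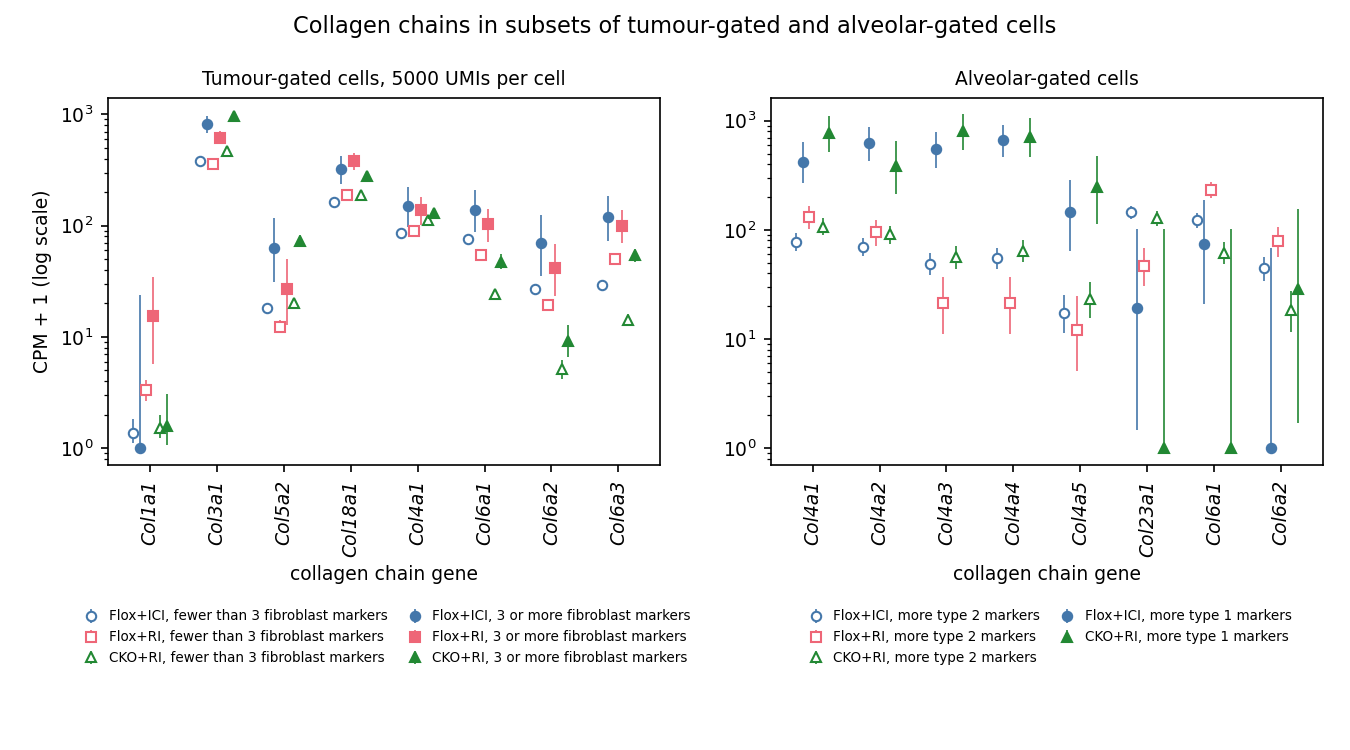
Chain levels as CPM + 1 (log axis) in tumour-gated cells with fewer than 3 (open) or 3 or more fibroblast markers (filled), each cell thinned to 5000 UMIs (left), and in alveolar-gated cells with more type 2 (open) or more type 1 markers (filled), unthinned (right); points are libraries and bars exact Poisson 95% intervals. Col3a1 in cells with 3 or more markers lies at 812.5, 617 and 968, and Col4a3 in cells with more type 1 markers at 548 and 796.

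Alveolar-gated cells had the highest levels of the type IV chains Col4a3 and Col4a4, which with Col4a5 form the specialised network of the alveolar and glomerular basement membrane. Col4a3 had 65.1, 20.1 and 79.0 CPM, and Col4a4 had 74.8, 20.1 and 86.0. Their genes lie on opposite strands of chromosome 1, 71 bases apart (Col4a3 chr1:82586921-82722059, Col4a4 chr1:82448423-82586849). Col4a3 was called higher by 6.81 on the log2 scale (SE 0.30, edgeR adjusted p = 4.17e-10) and Col4a4 by 3.76 (SE 0.40, adjusted p = 4.45e-06). Col4a5 had 21.3, 10.9 and 31.0 CPM (log2 4.40), lower in each library than the 74.0, 16.6 and 42.3 CPM of fibroblast-gated cells. Its neighbour Col4a6, with start sites 1343 bases apart on the X chromosome, had 9.02, 3.65 and 1.55 CPM and was called at 2.01 (adjusted p = 0.0358), a call lost without Flox+RI (0.0718). Col23a1 had 139, 45.6 and 120 CPM (log2 2.81), Col12a1 38.7, 27.3 and 11.6 (log2 2.66), and Col6a1 118, 230 and 58.1 (log2 1.30). The Col6a1 call was lost without Flox+RI (edgeR adjusted p = 0.0934). Pooled over libraries, fibroblast-gated cells had more Col23a1 than alveolar-gated cells (155 against 117 CPM). The same held for Col12a1 (55.6 against 26.5), Col6a1 (396 against 113) and Col4a6 (19.3 against 5.31). For Col12a1 the order was the reverse in Flox+ICI, where alveolar-gated cells had more. In all 7 chains were called higher and 9 lower, against 18.6% and 9.86% of all genes, with medians of -1.02 for the chains and 0.00 for all genes. Col8a2, a short chain collagen not tested for want of counts, had 9.67, 3.65 and 6.20 CPM.

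Type 1 and type 2 alveolar cells, the flat gas-exchange cells and the surfactant makers, were then told apart by which list had more markers detected. The lists held 5 type 1 and 9 type 2 markers, so the longer list could lead with a smaller share of its markers. This division was chosen after the values were seen. Cells with more type 1 markers numbered 24, 0 and 12. They carried 548 CPM of Col4a3 in Flox+ICI and 796 in the library labelled CKO+RI, and 658 and 714 of Col4a4. The 416, 112 and 171 cells with more type 2 markers carried 48.0, 20.2 and 55.2 CPM of Col4a3 and 54.1, 20.2 and 63.4 of Col4a4. Col23a1 had the reverse pattern, with 143, 46.0 and 127 CPM in cells with more type 2 markers and 18.3 and 0 in those with more type 1 markers. Col6a1 had 121, 232 and 60.9 CPM in cells with more type 2 markers.

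The summed level of alveolar-gated cells had ratios of 0.940 (0.843 to 1.05) for Flox+RI over Flox+ICI, an interval that spans 1, and 1.18 (1.06 to 1.32) for CKO+RI over Flox+RI. With each cell weighted equally these were 0.606 and 1.80. In Flox+RI over Flox+ICI, 0 of 13 chains were past the fold upwards and 4 downwards (Col3a1, Col4a3, Col4a4 and Col23a1), where 2.77% of all genes were upwards and 9.34% downwards. In CKO+RI over Flox+RI, 5 of 13 were upwards and 4 downwards, where 9.14% of all genes were upwards and 5.85% downwards. Those upwards were Col3a1 (ratio 5.996, 3.72 to 10.3), Col4a3 (3.94), Col4a4 (4.29), Col4a5 (2.83) and Col23a1 (2.63). Those downwards were Col6a1 (0.253, 0.187 to 0.339), Col6a2 (0.223), Col7a1 (0.354) and Col12a1 (0.425). Col6a1 and Col6a2 were lower in the library labelled CKO+RI in alveolar-gated as in tumour-gated cells. Pooled over libraries, alveolar-gated cells had more of both than tumour-gated cells (Col6a1 113 against 43.5 CPM, Col6a2 37.8 against 13.4). Alveolar-gated cells carried 1347 to 1984 CPM of the tumour list, which includes the keratin genes Krt8 and Krt18. Alveolar-gated Col3a1 had 72.8, 32.8 and 197 CPM, and neutrophils had 52.3, 63.3 and 113. Flox+RI had no cells with more type 1 markers, and its alveolar-gated cells carried 478 CPM of airway markers against 24665 in Flox+ICI and 24119.8 in the library labelled CKO+RI. The part of cell mixture in these ratios was not tested.

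Mural-gated cells, the pericytes and smooth muscle cells that wrap vessels, were few, and their values are given mainly as a description. With or without an Xist UMI they numbered 24, 11 and 13 and carried 5246, 9233 and 7426 CPM of collagen. Col4a1 had 976, 2971 and 896 CPM, highest in Flox+RI as in endothelial-gated cells. The endothelial marker list in these mural cells summed to 387, 696 and 142 CPM, also highest in Flox+RI, and its part in the Col4a1 level was not tested. Col1a2 had 515, 1128 and 597 CPM and Col3a1 had 534, 639 and 1565. Col6a3 had 295, 357 and 740, Col18a1 276, 263 and 341, Col15a1 92.0, 357 and 156, and Col8a1, a chain of vessel walls, 276, 94.0 and 56.9. In an edgeR fit of 13 sums with the 1 mural sum of at least 20 cells, that of Flox+ICI, whose spread is assumed to be that of the other sums, 6 of 30 chains were called higher (Col1a1, Col1a2, Col4a5, Col4a6, Col6a3 and Col8a1) and 0 lower. In that fit 2.19% of 13795 genes were called higher, and no mural replicate stands behind these calls.

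The gate that also required an Xist UMI left 8, 4 and 7 mural cells, in which a count of 0 allows, by the same limit of 3 counts, up to 102, 321 and 48.6 CPM. On these few cells 11 chains had their highest pooled level. Col5a1 had 170, 642 and 308 CPM, Col5a3 34.0, 428 and 259, Col27a1, a minor fibrillar chain, 34.0, 214 and 97.2, and Col6a3 510, 321 and 713. Col18a1 had 442, 0 and 373 CPM, Col15a1 102, 214 and 178, Col16a1 34.0, 107 and 130, Col7a1 68.0, 107 and 64.8, and Col8a1 408, 214 and 0. Col4a6 had UMIs only in the library labelled CKO+RI, at 97.2 CPM, as did Col22a1, a chain of tissue junctions, at 16.2. These values rest on very few molecules.

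The remaining 9 chains had fewer than 20 UMIs over all gated cells. Col6a4 had 0. The others were Col6a5, Col6a6, Col9a1, Col9a2, Col10a1, Col11a1, Col19a1 and Col26a1, with 2 to 19 UMIs each. All 44 chains are thereby accounted for: 25 tested in the fit, 10 described by level alone and 9 below the limit.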

How the data were processed

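Single-cell RNA-seq libraries were available as 3 deposited tables of UMI counts, 1 per group. The authors deposited unnormalized UMI counts, made with Cell Ranger 6.1.2 per the file headers. The submitters' processing notes give version 6.0 and the build mm10, and list Seurat 5.0.3 but no use of it. The other deposited columns held gene names and barcodes, and every barcode had at least 500 UMIs. Barcodes under 200 genes or over 20% mitochondrial UMIs were dropped, and the highest doublet scores were removed at 0.8% per 1000 barcodes (915, 1367 and 653 barcodes). This left 9777, 11706 and 8383 cells (Flox+ICI, Flox+RI, CKO+RI).

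Classes were gated on 12 fibroblast, 12 mural, 12 endothelial, 12 tumour and 17 alveolar markers. Alveolar cells with 2 or more of 3 leukocyte genes were left out. Summed counts of classes with at least 20 cells were tested with edgeR 4.0.16 (TMM, filterByExpr, quasi-likelihood test, library as a block, Benjamini-Hochberg adjustment) in R 4.3.3. The test reports no standard error, so each SE is the absolute log2 difference divided by the square root of the F statistic. Nothing states that the sums come from separate animals, so p-values measure only the spread between these libraries. Ratios between libraries have exact conditional binomial 95% intervals. Python steps used numpy 2.4.6, scipy 1.17.1, pandas 2.3.3 and scanpy 1.11.5, and the fit was tested on simulated data.

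The members, marker lists and pathway lists were chosen with earlier results of these data known. A chain is described in its highest class if it had at least 20 UMIs over the gated cells, and chains past the fold are named. The marker minimum, the lead and the leukocyte limit were set after marker detection and cell counts were seen, with the 20-cell minimum in view, and Flox+RI passed it with 21 fibroblast-gated cells. The planned contrast was against 4 classes, but mural sums had too few cells, so 3 were used, and mural ratios use a minimum of 10 cells chosen after seeing the data. Alternatives covered doublets, the mitochondrial limit, marker limits, the Xist rule, cell weights, thinning, clusters, DESeq2 1.42.0, its size factors, the filter, the block and each library left out.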

Additional observations from a re-analysis of the deposited data

Results flagged for a closer look

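A few chains were past the 2-fold limit in opposite directions in different classes under the same ratio, and the difference between classes was not tested. For CKO+RI over Flox+RI, Col3a1 had ratios of 0.339 in fibroblast-gated, 2.31 in endothelial-gated and 5.996 in alveolar-gated cells. Col5a2 had 0.337 in fibroblast-gated, 6.11 in endothelial-gated and 2.40 in tumour-gated cells. Col23a1 had 3.67 in endothelial-gated, 2.63 in alveolar-gated and 0.382 in tumour-gated cells, where its level was at most 1.18 CPM in these libraries.

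For Flox+RI over Flox+ICI, which shares the Flox+RI library, Col3a1 had 3.23 in fibroblast-gated, 2.01 in endothelial-gated and 0.451 in alveolar-gated cells. Col5a3 had 2.996 in fibroblast-gated and 0.499 in tumour-gated cells. Col3a1 in leukocytes ranged from 26.6 to 113 CPM, against 24.9, 50.0 and 116 CPM in endothelial-gated and 72.8, 32.8 and 197 CPM in alveolar-gated cells.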

How the results depend on the processing

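Of 711 values of 72 chain ratios past the fold, recomputed under alternatives, 705 kept their direction and 6 did not. Endothelial-gated Col3a1 in Flox+RI over Flox+ICI went to 0.860 without doublet removal, 0.779 with each cell weighted equally, 0.517 after thinning to 1000 UMIs and 0.718 with clusters made without collagen genes. After thinning, Col23a1 in CKO+RI over Flox+RI went to 0.888 in endothelial-gated cells and Col2a1 in Flox+RI over Flox+ICI to 0.774 in tumour-gated cells. Thinning left 20 chain ratios past the fold in CKO+RI over Flox+RI, where 42 had been, and 17 of 30 in Flox+RI over Flox+ICI, from fewer UMIs.

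Summed ratios that moved beyond their counting interval are given next, CKO+RI over Flox+RI first. In fibroblast-gated cells they were 0.289 without doublet removal, 0.331 with a lead of 2 markers, 0.247 and 3.68 without the Xist rule, 0.278 and 3.73 with equal weights, 0.271 and 3.87 after thinning, and 2.39 (Flox+RI over Flox+ICI) with clusters. In endothelial-gated cells they were 2.41 (Flox+RI over Flox+ICI) without doublet removal, 0.549 with a lead of 2, 0.384 and 3.41 with equal weights, 0.435 and 3.19 after thinning, and 0.442 with clusters. In tumour-gated cells they were 1.18 with at most 10% mitochondrial UMIs, 1.16 with a lead of 2, 1.15 and 0.998 with equal weights, 1.14 and 0.991 after thinning, and 1.19 with clusters. In alveolar-gated cells they were 1.36 and 0.805 with 1 marker fewer, 1.80 and 0.606 with equal weights, and 1.04 with clusters. The cause of these shifts was not tested. The lead of 2 markers and the leukocyte limit in every class were chosen after seeing the data, and under either the Flox+RI fibroblast sum had under 20 cells.

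Of 73 calls of a chain in a class, 0 changed sign among those compared under 14 settings, and in 4 of these settings 70 were compared because Col4a6 was not tested. Without the replicate block, that is with no pairing by library, 20, 2, 5 and 6 chains were called higher in fibroblast-gated, endothelial-gated, tumour-gated and alveolar-gated cells, and 8 calls in either direction were lost. Leaving out each library in turn gave 19 to 20, 2 to 3, 4 to 6 and 5 to 7 chains called higher. With no filter on low counts 8 chains were called higher in tumour-gated cells. Col4a2 in fibroblast-gated cells was not called with a lead of 2 markers (edgeR adjusted p = 0.148) or the leukocyte limit (0.145). The planned mural call and mural ratio had no value at 20 cells. Fibroblast and mural values between libraries rest on few cells.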
